A study of Mus musculus with 10 samples.

Results

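The electrical behaviour of the muscle fiber membrane, the sarcolemma, was followed through 6 genes chosen by name: Scn4a, Clcn1, Kcnj2, Kcnj11, Atp1b1 and Fxyd1. They were taken from 21098 genes in the table, and 5 of the 6 had a count in any library. Beside them, 123 other genes for channels, pumps, exchangers and their regulators were listed by hand and are described as a background of the same kind. The study asked how blocking miR-22, a microRNA abundant in striated muscle, affects the muscle of obese mice.

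All animals were wild-type (WT) male C57BL/6J mice with diet-induced obesity (DIO). They were kept on a high fat diet for 9 weeks before dosing and, by the study's methods, throughout the dosing. By the series' text they were 30 weeks old at the end. The treated group (ASO, n = 5 libraries) received an anti-miR-22 antisense oligonucleotide, a short chemically modified DNA strand labelled RES-010, under the skin once a week for 14 weeks at 10 mg/kg. The control group (CTRL, n = 5 libraries) received 0.9% saline in the same way, so no control oligonucleotide of another sequence was in the comparison. The gastrocnemius (GAS), the large calf muscle made mostly of fast fibers, was sequenced whole, and in such bulk tissue fewer cells of a type and less RNA per cell cannot be told apart.

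A muscle action potential rises through the voltage-gated sodium channel, whose pore is encoded by Scn4a, and is held in check by the chloride conductance of ClC-1, encoded by Clcn1, which makes up most of the resting conductance of the fiber. The inward rectifier encoded by Kcnj2 sets the resting potential, while the pore encoded by Kcnj11, with a sulfonylurea receptor, forms the KATP channel that opens when ATP runs low. The sodium pump restores the gradients after each impulse: Atp1b1 encodes one of its beta subunits, and Fxyd1 encodes phospholemman, a small protein that tunes the pump. Inherited changes in Scn4a, Clcn1 and Kcnj2 cause myotonia or periodic paralysis.

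The oligonucleotide blocks the mature miR-22-3p, which recognises messages through its seed, bases 2 to 8. The microRNA is shown with the seed in capitals (RefSeq, GRCm38.p6, chr11:75463772-75463793, plus strand) because the member sites can be read against it. The longest annotated 3′UTR of each member was searched on the sense strand for the seed match GGCAGCT and for its 6-base core GCAGCT, which lies inside the longer match. The matches found are given with the matching bases in capitals.

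miR-22-3p: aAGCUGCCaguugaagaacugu

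Kcnj11 site: tcagctcccatgGGCAGCTgtgagtcactt

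Atp1b1 site: tccagtgtgttctGCAGCTgtgtctgagac

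Kcnj2 site: gatttcaaattttGCAGCTgactcatagcc

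Only Kcnj11 among the 6 held the full match (GRCm39, chr7:45747279-45747308, minus strand). The 6-base core within it starts at position 854 of a 3′UTR of 1629 bp, counted from the first base after the stop codon. Atp1b1 (chr1:164265093-164265122, minus strand) and Kcnj2 (chr11:110965144-110965173, plus strand) each held the core alone, at positions 1047 of 1478 bp and 1261 of 3769 bp. None of these matches is followed by an A. No match was present in the 3′UTRs of Scn4a (2118 bp), Clcn1 (1606 bp) or Fxyd1 (298 bp), which says only that these letters are not there. For comparison, 16.7% of the longest 3′UTRs of 20955 protein-coding genes held the full match and 41.2% held the core, at a median length of 1468 bp. A match is a description of the sequence and not evidence of binding.

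The counts cover only the last 500 bp of annotated 3′UTRs, so each gene was read through 1 or a few short windows on GRCm39. The windows of Scn4a (ENSMUSG00000001027, 11:106209418–106209917, minus strand), Kcnj2 (ENSMUSG00000041695, 11:110967148–110967647, plus strand), Kcnj11 (ENSMUSG00000096146, 7:45746520–45747019, minus strand) and Atp1b1 (ENSMUSG00000026576, 1:164264678–164265177, minus strand) are single 500-bp stretches of 3′UTR. The Atp1b1 core match lies inside its window, and those of Kcnj11 and Kcnj2 lie outside theirs. Clcn1 (ENSMUSG00000029862) was counted mainly on its most distal segment of 478 bp (6:42291113–42291590, plus strand), with 77.8% of its counts. The window of Atp1b1 is covered on the opposite strand by segments of Nme7, but held 8520 counts against 4 for Nme7, and the counting therefore used strand.

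Fxyd1 (ENSMUSG00000036570) was not measured. Its 12 segments, of 30 to 287 bp, lie on top of each other within 7:30751103–30751389 (minus strand), and none has a base of its own. All 10 libraries listed 0 counts for it. Since the 1759 genes without such a base hold 36 counts together, the 0 carries no information on phospholemman RNA.

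Library totals were 1606909 to 2116720 counts in CTRL and 2239186 to 2632560 with the ASO, with each ASO library deeper than each CTRL library. Of 7813 genes tested, 11.8% were higher and 17.4% lower with the ASO, 29.2% in either direction (edgeR's quasi-likelihood test, Benjamini-Hochberg adjusted p under 0.05). That split of 920 higher and 1363 lower became 528 and 1819 when libraries were scaled by total counts alone, which moved the median of all log2 fold changes from −0.03 to −0.21, and 1262 and 1206 with upper quartile scaling. Replicate 4 of the ASO group stood apart by its slow fiber genes and replicate 3 of CTRL by its fat and macrophage genes, and results that depend on them are given with and without them. Summed myofiber markers were 84659.9 to 130032 CPM (counts relative to the TMM-scaled library total) with the ASO and 40624 to 79789 CPM in CTRL. Of these 12 markers, Acta1 was the highest and Mb and Tnnt3 were listed at 0. Only 5 of them were tested, of which 2 were higher and 1 was lower. Summed fast fiber markers were 37303 to 81937 CPM with the ASO and 19902 to 38620 CPM in CTRL, and 5 of the 6 tested were higher. The part of these shifts in the results was not tested. The labels name replicates without saying more about the animals behind them, and the p-values measure the spread between these libraries.

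**Figure D1:**
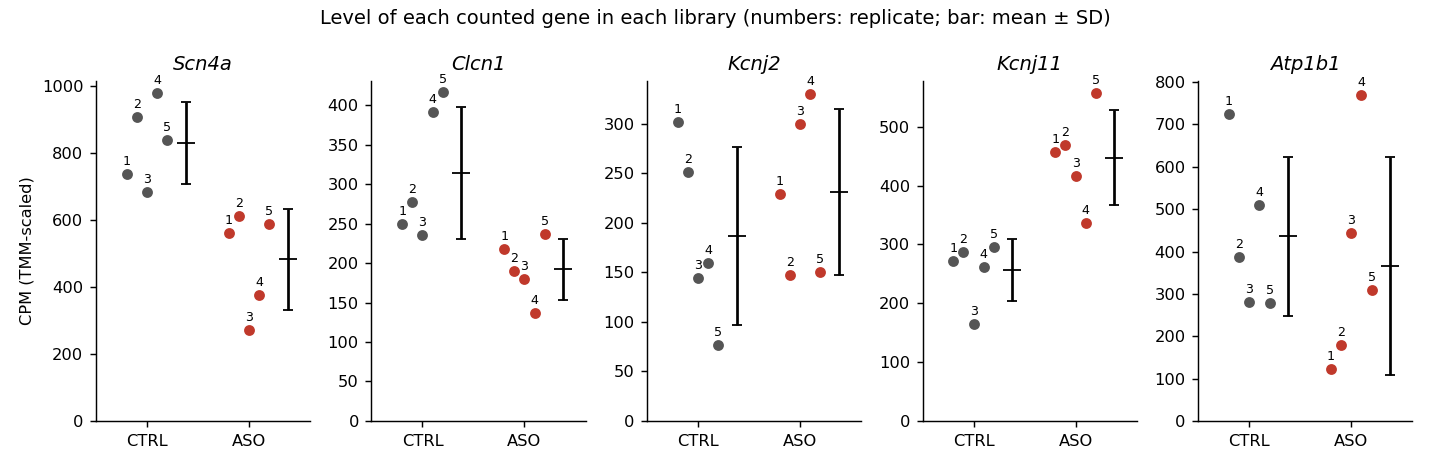
Level of each of the 5 counted genes in each library, in TMM-scaled CPM on linear axes that start at 0, with replicate numbers and the mean ± SD of 5 libraries beside the points. Scn4a lay lower and Kcnj11 higher with the ASO without overlap, Clcn1 overlapped by 1 library, and Kcnj2 and Atp1b1 spread widely in both groups.

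Of the 5 genes counted, 2 fell (Scn4a and Clcn1), against 17.4% of all genes tested, and 1 rose (Kcnj11), against 11.8%. Together these make 3 of 5, where 29.2% of all genes changed in either direction. Scn4a and Kcnj11 did not overlap between the groups, where 13.4% of all genes lay apart on the lower and 7.97% on the higher side. Kcnj2 and Atp1b1 did not pass the test.

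Scn4a, the pore of the sodium channel that carries the upstroke of the action potential, was at 737, 909, 683, 980 and 840 CPM in CTRL replicates 1 to 5. With the ASO it was at 563, 612, 272, 376 and 589 CPM. Every treated library lay below the lowest control, and replicates 3 and 4 of the treated group were the lowest of all. Means ± SD over 5 libraries were 482 ± 150 CPM for the ASO group and 829.9 ± 122 CPM for CTRL, so that treated muscle held 0.581 of the control level. On the log2 scale the change was −0.78 ± 0.22 (standard error; edgeR's quasi-likelihood test, Benjamini-Hochberg adjusted p = 0.018). A two-sided exact permutation test on the log2 CPM values gave p = 0.0079, the smallest that 5 against 5 libraries allow.

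The fall of Scn4a was present under every alternative run, with log2 fold changes from −1.02 to −0.70. Leaving out single libraries gave −0.86 to −0.59, with adjusted p of 0.017 to 0.049 in the same edgeR test.

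Clcn1, the chloride channel that dampens repetitive firing, was at 250.0, 277, 235, 391.8 and 417 CPM in CTRL. The treated libraries were at 218, 189.9, 179, 137 and 237 CPM. The groups met at one point, since replicate 5 with the ASO was marginally above replicate 3 of CTRL, and the highest values were those of replicates 4 and 5 of CTRL. Its group means ± SD were 192 ± 38.4 CPM (ASO, n = 5) and 314 ± 84.1 CPM (CTRL, n = 5), or 0.611 of the control level. The change on the log2 scale was −0.71 ± 0.20 (standard error; edgeR's quasi-likelihood test, Benjamini-Hochberg adjusted p = 0.020), and the two-sided exact permutation test gave p = 0.016.

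The groups were apart for Clcn1 on its most distal segment. There the treated libraries lay between 104 and 171 CPM and the controls between 187 and 325 CPM, with no overlap, and the means ± SD were 145 ± 29.7 CPM and 249 ± 59.5 CPM (n = 5 each). Further transcripts of the gene, annotated as subject to nonsense-mediated decay, gave 3 counted segments further upstream. The one 1592 bp upstream, with 18.6% of the counts, was at 38.9 ± 11.4 CPM in treated and 55.3 ± 22.6 CPM in control libraries (SD, n = 5 each) and overlapped. The one 427 bp upstream was at 2.78 ± 1.18 CPM against 7.55 ± 2.38 CPM without overlap, and the one 699 bp upstream was at 5.26 ± 2.77 CPM against 2.80 ± 0.81 CPM with overlap (SD, n = 5 each). The first of these has no base of its own, and only 151 of the 500 bp of the second lie in annotated exons of the gene. Their values are therefore not a measure of single transcripts. The distal segment held 75.5% of Clcn1 counts with the ASO and 79.1% in CTRL.

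**Figure D2:**
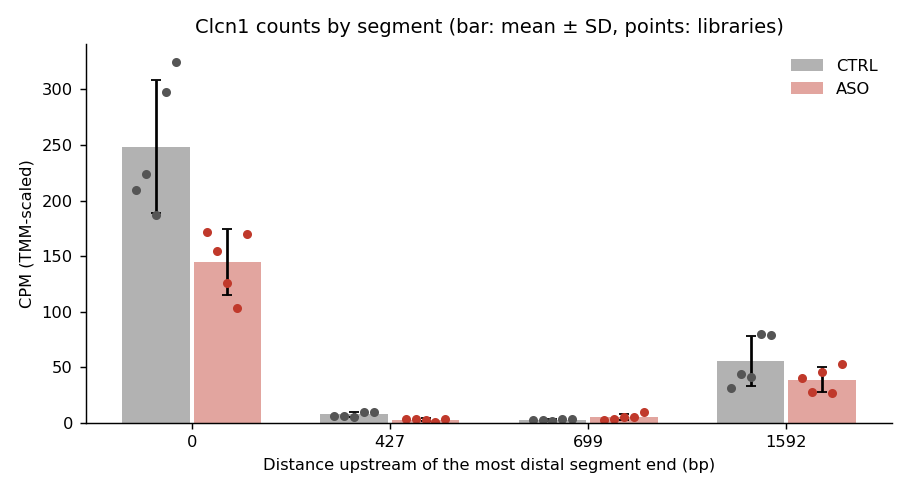
Counts of Clcn1 in TMM-scaled CPM on 4 segments, ordered by distance in bp upstream of the most distal segment, with bars for the mean ± SD of 5 libraries and a point for each library. On the most distal segment the 5 treated libraries (104 to 171 CPM) lay below the 5 controls (187 to 325 CPM), while the segments 699 and 1592 bp upstream overlapped.

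When only the most distal segment of every gene was fitted, the log2 fold change of Clcn1 was −1.03 (edgeR's quasi-likelihood test, Benjamini-Hochberg adjusted p = 0.0077). In that fit the values of the 4 members with a single counted segment moved down by 0.24 to 0.25 on the log2 scale, through the scaling alone. The call on Clcn1 over all segments was lost without replicate 3 of the ASO group (adjusted p = 0.051), without replicate 4 of CTRL (0.056) or without replicate 5 of CTRL (0.054), with log2 fold changes of −0.64, −0.62 and −0.59 in the same edgeR test.

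Whether the sodium and the chloride channel changed unequally was read from their ratio. The log2 ratio of Scn4a to Clcn1 counts within a library does not depend on how libraries are scaled. It was 1.29 ± 0.41 with the ASO and 1.43 ± 0.27 in CTRL (SD, n = 5 each), and the difference of −0.14 was within the spread between libraries (two-sided exact permutation test, p = 0.56). The low ratio of replicate 3 with the ASO, 0.60, lay below all others.

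Kcnj11, the pore of the KATP channel, moved the other way. It was at 271, 287, 164, 262 and 295 CPM in CTRL and at 457, 468, 417, 336 and 558 CPM with the ASO. All treated libraries lay above all controls, with replicate 4 the lowest of the treated and replicate 3 the lowest of the controls. These same replicates had the lowest summed fast fiber markers of their groups, 37303 and 19902 CPM, and the part of fiber content in the value was not tested. The ASO mean of 447 ± 80.7 CPM was 1.75 times the CTRL mean of 256 ± 52.9 CPM (± SD, n = 5 each). The log2 fold change of 0.81 had a standard error of 0.18 (edgeR's quasi-likelihood test, Benjamini-Hochberg adjusted p = 0.0067), and the two-sided exact permutation test gave p = 0.0079.

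The rise of Kcnj11 was 0.68 to 0.92 on the log2 scale when single libraries were left out. When only the most distal segments were fitted it was 0.56 and missed the threshold (edgeR's quasi-likelihood test, Benjamini-Hochberg adjusted p = 0.059, against 2.1e-04 to 0.059 over all alternatives, DESeq2 included), although its own counts, on a single segment, are the same there.

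Abcc9 encodes the sulfonylurea receptor that joins Kcnj11 in the KATP channel of striated muscle. Its level was lower in treated muscle, at 126 ± 40.9 CPM beside 269.9 ± 53.4 CPM in control muscle (± SD, n = 5 each), which is −1.10 on the log2 scale (edgeR's quasi-likelihood test, Benjamini-Hochberg adjusted p = 0.0041). The controls were at 223, 251, 222, 322 and 332 CPM and the treated libraries at 154, 175, 68.9, 109.8 and 121 CPM, with no overlap. All but 2 of its 4008 counts lie on one segment (6:142534857–142535356, minus strand), and the 3 identical segments at the more distal annotated end have no base of their own, so their 0 carries no information and the value refers to one 3′ end of the gene.

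On the 3′ ends that were counted, Kcnj11 and Abcc9 moved in opposite directions. Their log2 count ratio within a library was 1.57, 1.42, 2.59, 1.61 and 2.21 with the ASO and 0.28, 0.20, −0.43, −0.30 and −0.17 in CTRL. The means were 1.88 ± 0.50 and −0.08 ± 0.31 (SD, n = 5 each), a difference of 1.96 with no overlap (two-sided exact permutation test, p = 0.0079, adjusted p = 0.032 by Benjamini-Hochberg over the 4 ratios tested). The difference was 1.79 to 2.08 when each library was left out in turn.

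**Figure D3:**
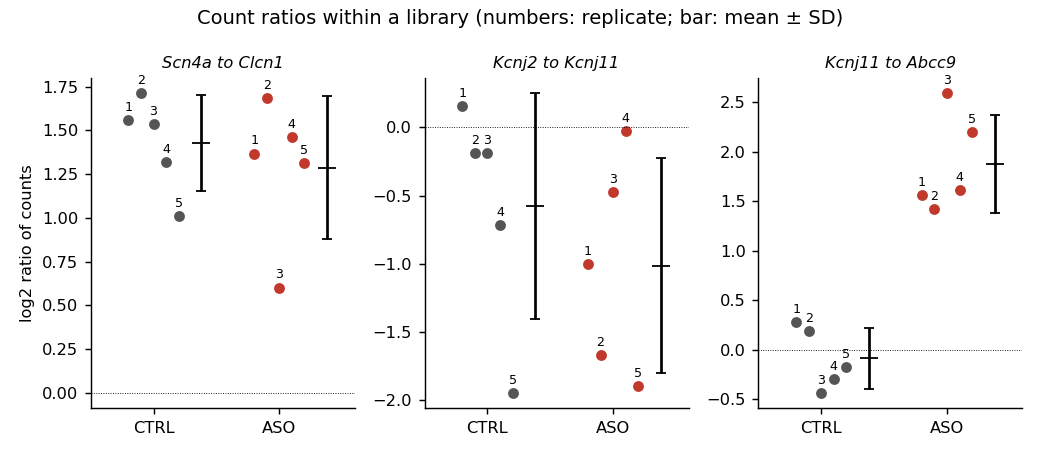
Log2 ratio of the counts of a pair of genes within each library (0.5 added to each count), with replicate numbers and the mean ± SD of 5 libraries; the dotted line marks equal counts. Kcnj11 to Abcc9 lay between 1.42 and 2.59 with the ASO and between −0.43 and 0.28 in CTRL, whereas the other pairs overlapped.

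Kcnj2, the inward rectifier that holds the resting potential, was at 302, 251.8, 144, 159 and 76.4 CPM in CTRL and at 229, 147, 299.9, 331 and 150.0 CPM with the ASO. The groups overlapped over most of their range, and replicate 5 of CTRL was the lowest. Means ± SD were 231 ± 84.1 CPM for the ASO and 187 ± 89.7 CPM for CTRL (n = 5 each), and the log2 fold change was 0.31 ± 0.34 (standard error; edgeR's quasi-likelihood test, Benjamini-Hochberg adjusted p = 0.53). The two-sided exact permutation test gave p = 0.42. Without replicate 4 of the ASO group and replicate 3 of CTRL together, the log2 fold change was 0.07. The log2 ratio of Kcnj2 to Kcnj11 was −1.01 ± 0.79 with the ASO and −0.58 ± 0.83 in CTRL (SD, n = 5 each), and this difference did not pass either (two-sided exact permutation test, p = 0.39).

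Atp1b1, a beta subunit that carries the sodium pump to the membrane and is the form of slow fibers, had the widest spread of the members with the ASO. It was at 724, 387, 281, 509.8 and 278 CPM in CTRL and at 124, 179.7, 444, 769 and 309 CPM with the ASO. Both the lowest and the highest libraries were treated ones. Means ± SD were 365 ± 258 CPM in treated and 436 ± 187 CPM in control muscle (n = 5 each), with a log2 fold change of −0.26 ± 0.44 (standard error; edgeR's quasi-likelihood test, Benjamini-Hochberg adjusted p = 0.69). The two-sided exact permutation test gave p = 0.44. A single library decided the value, which was −0.71 without replicate 4 of the ASO group and 0.0066 without replicate 1 of CTRL. Without replicate 4 of the ASO group and replicate 3 of CTRL together it was −0.84 (edgeR's quasi-likelihood test, Benjamini-Hochberg adjusted p = 0.12), while Scn4a, Clcn1 and Kcnj11 were then at −0.73, −0.67 and 0.80 and past the threshold (adjusted p = 0.041, 0.022 and 0.0031).

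The libraries with much Atp1b1 were those with much slow fiber RNA. The summed CPM of 10 slow fiber genes, of which Tnnc1 was the highest and Tnnt1 and Csrp3 were listed at 0, ran from 64.2 to 8941 with the ASO and from 143 to 3134 in CTRL. Ordered by this sum, the controls ran 1, 4, 2, 3 and 5, and Atp1b1 had the same order. In the treated group replicates 4, 3 and 5 led both lists, and replicates 1 and 2 were the lowest in both. Kcnj2 was highest in the same libraries, replicate 4 of the ASO group and replicate 1 of CTRL, but followed the order less closely. These orders are a description over 5 libraries a group.

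**Figure D4:**
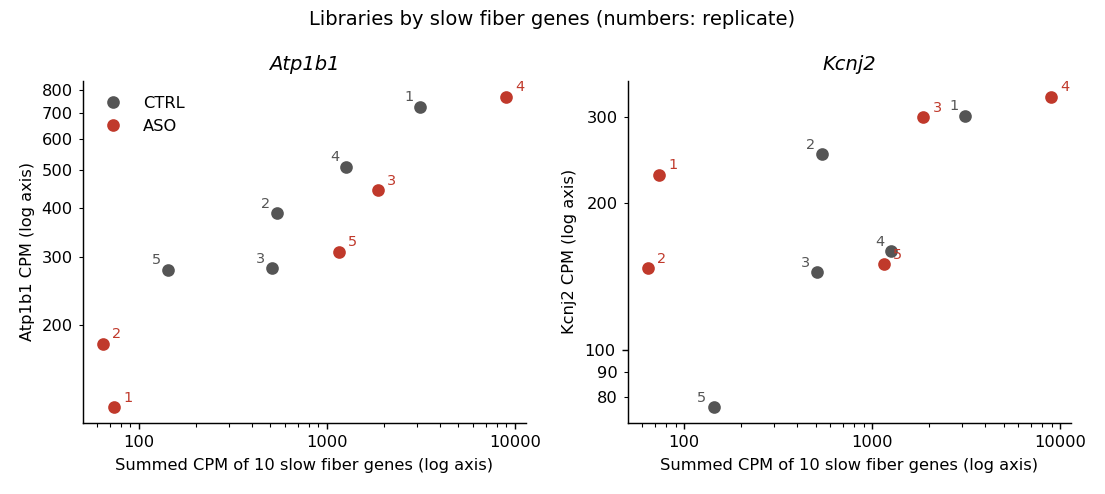
Level of Atp1b1 (left) and Kcnj2 (right) in CPM against the summed CPM of 10 slow fiber genes in each library, all axes logarithmic, with replicate numbers. Atp1b1 rose with the sum from 124 CPM in replicate 1 to 769 CPM in replicate 4 of the ASO group, and Kcnj2 was highest in the libraries with the highest sums.

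Atp1b2, the beta subunit of fast fibers, did not pass the test either. Its means were 1323 CPM (ASO) and 1241 CPM (CTRL), a log2 fold change of 0.09 (edgeR's quasi-likelihood test, Benjamini-Hochberg adjusted p = 0.80). On the distal segment, with 61.1% of its counts, the value alone was 0.53 (adjusted p = 0.15 by edgeR). Levels there were 1939 ± 526 CPM per kb with the ASO and 1132 ± 289 in CTRL (SD, n = 5 each). A segment 930 bp upstream, with 38.9% of the counts, held 1146, 1350, 296, 532 and 627 counts in ASO replicates 1 to 5. In CTRL, whose libraries are less deep, it held 973, 1598, 1007, 1134 and 1785. The value over both segments therefore joins a higher distal and a lower upstream mean.

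Kcnj12, which pairs with Kcnj2, held 32 counts in all and was not tested. Its segments overlap and leave only 4 bp of its own, so the low count is not a measure of its level. Scn4b, a sodium channel beta subunit named after its values were seen, had means of 729.7 CPM (ASO) and 712 CPM (CTRL, log2 fold change 0.03, edgeR's quasi-likelihood test, Benjamini-Hochberg adjusted p = 0.89). Whether it differed from Scn4a in its change was not tested.

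Levels of different genes were compared per kb of unique sequence on the most distal segment. In CTRL, Scn4a was the highest of the members at 1660 ± 243 CPM per kb, followed by Atp1b1 at 872 ± 374, Clcn1 at 582 ± 139, Kcnj11 at 512 ± 106 and Kcnj2 at 373 ± 179 CPM per kb (SD, n = 5 each). Each neighbouring pair in this order overlapped between libraries. With the ASO, Scn4a was at 965 ± 300, Kcnj11 at 894 ± 161, Atp1b1 at 730.3 ± 515, Kcnj2 at 463 ± 168 and Clcn1 at 339.8 ± 69.5 CPM per kb (SD, n = 5 each). By these means Kcnj11 ranked below Clcn1 in CTRL and next to Scn4a with the ASO. Within single controls it lay below Clcn1 in replicates 3, 4 and 5. It lay above Clcn1 in replicates 1 and 2, at 542 and 575 against 490 and 524 CPM per kb.

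The genes whose profiles over the 10 libraries were most like the members were found by the root mean square difference of log2 CPM values centred on each gene's mean. Near to Scn4a were Ube2l3 and Mob2, both at 0.13, where the median over all genes was 0.69. Clcn1 ran closest to Camk2b at 0.11, a subunit of the calcium/calmodulin-dependent kinase of muscle, then to Zmynd11 and Chfr at 0.14 and 0.16, against a median of 0.62. Kcnj11 ran closest to Myoz1, a Z-disc protein of fast fibers, and to Hjv, both at 0.11, and then to H2ax at 0.13, against a median of 0.63. For Kcnj2 the nearest were Naprt, Canx and Rab33b at 0.28 to 0.34, and for Atp1b1 they were Ntn4, Myl12a and Nceh1 at 0.32 to 0.36, so neither had a close companion.

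**Figure D5:**
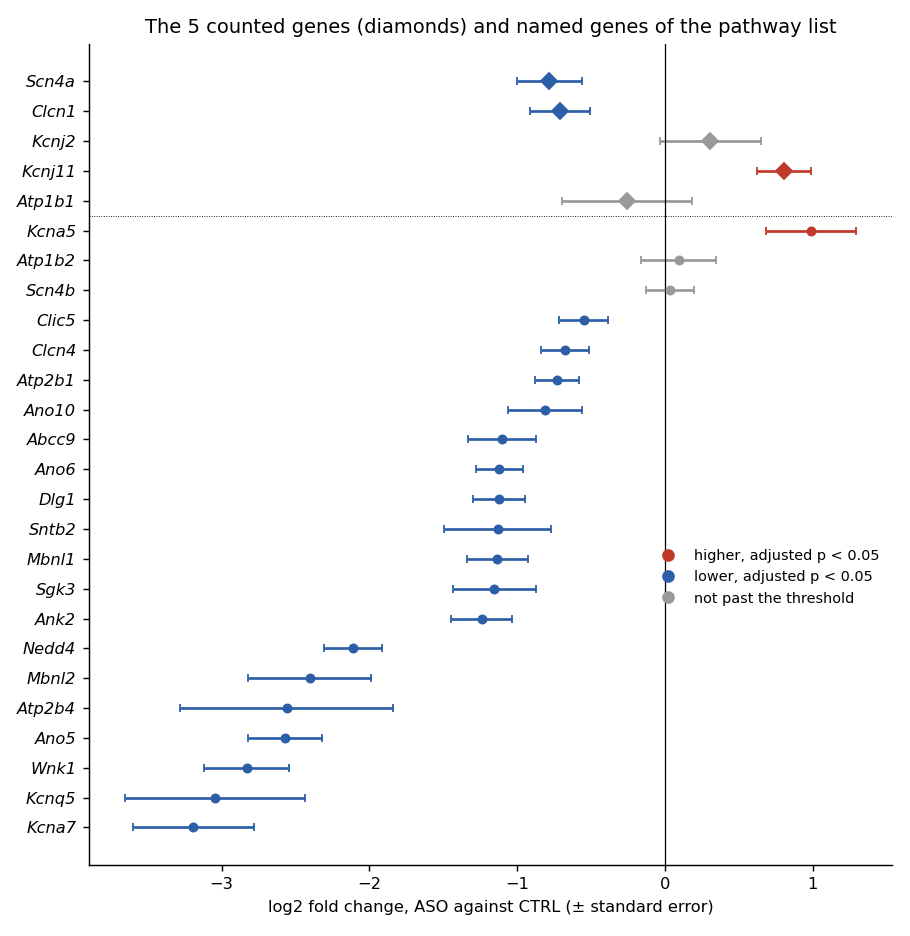
Log2 fold change of the ASO against CTRL with its standard error for the 5 counted members (diamonds, above the dotted line) and named genes of the wider list (circles). Scn4a at −0.78 and Clcn1 at −0.71 lay to the left and Kcnj11 at 0.81 to the right, while the listed genes past the threshold were all lower except Kcna5 at 0.99.

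Of the 123 other channel, pump and regulator genes, 59 could be tested, 9 had no base of their own and 21 had no count. With the ASO 18 fell (30.5%, against 17.4% of all genes tested), 1 rose (1.69%, against 11.8%) and 40 did not pass. Their median log2 fold change was 0.02, beside −0.03 over all genes. Of the 18 lower genes, 13 did not overlap between the groups, where 13.4% of all genes tested lay apart on the lower side. The 13 were counted among genes already called lower, so their high share there is no separate result. Only 9 of the 18 had a value in the fit of each gene's most distal segment with bases of its own, and 4 of these passed the threshold there, namely Nedd4, Kcna7, Ano6 and Abcc9. For Ank2, Kcnq5, Mbnl1, Mbnl2, Wnk1, Sgk3 and Ano10, 0% of the counts lay on that segment, and for Dlg1 almost none did, so that their decreases refer to upstream segments. Over all genes, 492 of 5486 tested were lower in the fit of distal segments.

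The class counts here and below stand beside 17.4% lower and 11.8% higher among all genes tested. By class, the sodium channels and their anchors had 1 of 3 tested genes lower, the adaptor Ank2 (log2 fold change −1.24, edgeR's quasi-likelihood test, Benjamini-Hochberg adjusted p = 0.0012). Potassium channels and sulfonylurea receptors had 3 of 14 lower and 1 higher. Beside Abcc9, the delayed rectifier Kcna7 fell by 3.19 on the log2 scale, though it has only 3 bp of its own, and Kcnq5 fell by 3.04 (adjusted p = 3.0e-04 and 0.0032 by edgeR). Kcna5, another delayed rectifier, rose from 7.57 to 15.1 CPM, a log2 fold change of 0.99 (adjusted p = 0.028 by edgeR), with overlapping groups. This call was lost in limma-voom, with total counts, at equal depth, with the replicate block, on distal segments only (0.73, adjusted p = 0.10 by edgeR) and without replicate 3 or 5 of the ASO group.

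Among chloride channels and cation-chloride cotransporters, 5 of 12 fell and 0 rose, with 0 also at an unadjusted p under 0.05, in DESeq2 and in limma-voom, and the median was −0.17. Ano5, an anoctamin linked to membrane repair and limb-girdle dystrophy, had a log2 fold change of −2.57 (edgeR's quasi-likelihood test, Benjamini-Hochberg adjusted p = 1.1e-04), but 9.74% of its counts are on the distal segment, where the level was 17.9 ± 4.39 CPM per kb with the ASO and 18.1 ± 5.05 in CTRL (SD, n = 5 each). Ano6, a calcium-activated lipid scramblase, fell by 1.12 on the log2 scale (adjusted p = 4.7e-04 by edgeR). Of 6 tested sodium pump and FXYD genes, none passed in edgeR, at an unadjusted p under 0.05 or in DESeq2 and limma-voom, with a median of 0.25. The exchangers and plasma membrane calcium pumps had 2 of 9 lower, among them the calcium pump Atp2b1 at −0.73 (adjusted p = 0.0035 by edgeR). On its distal segment, with 46.1% of the counts, Atp2b1 was at 69.8 ± 15.0 CPM per kb with the ASO and 65.9 ± 15.8 in CTRL (SD, n = 5 each), and the call was lost (adjusted p = 0.58 by edgeR).

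Regulators and anchors of these channels had 7 of 15 lower in edgeR and 0 higher, against 1 higher at an unadjusted p under 0.05, 1 in DESeq2 and 0 in limma-voom, with a median of −0.72. Nedd4, a ubiquitin ligase, was at 95.4 CPM against 412 CPM in CTRL, a log2 fold change of −2.11 (edgeR's quasi-likelihood test, Benjamini-Hochberg adjusted p = 1.1e-04). Mbnl1 and Mbnl2, splicing factors needed for the adult form of Clcn1 messages, had log2 fold changes of −1.13 and −2.41 (adjusted p = 0.0018 and 0.0014 by edgeR), and Mbnl1 was at 499.9 CPM against 1096 CPM in CTRL. The kinase Wnk1, a regulator of cation-chloride cotransport, and the scaffold Dlg1 had log2 fold changes of −2.83 and −1.12 (adjusted p = 1.1e-04 and 8.6e-04 by edgeR). The 6 remaining lower genes, named after their values were seen, were Clcn4, Sgk3, Atp2b4, Clic5, Ano10 and Sntb2, with log2 fold changes of −2.56 to −0.55. On the distal segment alone the calls on Clcn4, Clic5 and Sntb2 were lost (adjusted p = 0.16, 0.86 and 0.084 by edgeR), and Clic5 was at 505 ± 47.2 CPM per kb with the ASO against 413 ± 93.4 in CTRL (SD, n = 5 each).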

How the data were processed

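GAS RNA from 5 ASO and 5 CTRL libraries was measured with stranded mRNA sequencing. The authors trimmed reads with fastp, mapped them with STAR on GRCm39 and deposited unnormalized counts from featureCounts (Subread) with Gencode M25, limited to the final 500 bp of 3′UTRs; the versions of STAR and featureCounts are not given in the sources used here. The strand option is not stated, and the counts show that strand was used. Of 52423 segments, 52361 were matched to GENCODE M39, and the 62 others hold 0.0197% of counts. Segments were summed per gene. The columns of 4 other samples were not used.

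All genes were tested with edgeR 4.0.16 (R 4.3.3), TMM scaling, its low-count filter, its quasi-likelihood test and p-values adjusted by Benjamini-Hochberg over 7813 genes, at 0.05. DESeq2 1.42.0, limma-voom (limma 3.58.1), other scalings and filters, the replicate number as a block, distal segments only, equal depth and leaving out libraries were alternatives. Single values, on the log2 CPM scale, and log2 ratios used two-sided exact permutation tests. Ratios had 0.5 added to counts and were run where both genes averaged at least 10 counts a library, as in 4 of 7 planned. Other steps used Python 3.11.15 with pandas 2.3.3, scipy 1.17.1, numpy 2.4.6 and matplotlib 3.10.9. The edgeR procedure was tested on simulated data.

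Members and gene lists were chosen with earlier results of these data known. Genes named are the members, listed genes past the threshold (at most 12 per direction, by adjusted p), Atp1b2, Kcnj12 and Abcc9, and the 3 nearest profiles of each member; others are said to be chosen after their values were seen. Some genes and 1 ratio that this rule covers are not reported here. CPM precision covers counting error and the spread between libraries together, and coordinates are 1-based.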

Additional observations from a re-analysis of the deposited data

Results flagged for a closer look

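One value stood apart from the rest of its group. Kcnj11 in replicate 3 of CTRL was at 164 CPM, where the next lowest control was at 262 CPM, a gap of 0.75 of the range of that group. The same library had the highest sums of adipocyte, macrophage and fibroblast markers among the controls (19123, 1635 and 1835 CPM), and their part in the value was not tested. Without it the log2 fold change of Kcnj11 was 0.68 (edgeR's quasi-likelihood test, Benjamini-Hochberg adjusted p = 0.0080). Chance alone marks about 1 in 20 groups in this way, and 10 groups were looked at.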

How the results depend on the processing

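Scn4a stayed lower and past the threshold in every fit run. Its log2 fold change was −1.02 to −0.70 under the alternatives and −0.86 to −0.59 when single libraries were left out. Clcn1 kept its direction but was short of the threshold without ASO replicate 3, CTRL replicate 4 or CTRL replicate 5 (−0.64, −0.62 and −0.59, over a range of −0.80 to −0.58 when single libraries were left out), so that members lower ranged from 1 to 2. On distal segments only, with 5486 genes tested, Kcnj11 was 0.56 (edgeR's quasi-likelihood test, Benjamini-Hochberg adjusted p = 0.059), members higher were 0, listed genes higher were 0 and listed genes lower were 4. Calls were fewer over all genes too, with 314 higher and 492 lower there, against 920 and 1363 of 7813 in the main fit. Leaving out single libraries gave Kcnj2 0.11 to 0.55 and Atp1b1 −0.71 to 0.0066, where it turned without CTRL replicate 1. It gave differences of −0.25 to 0.030 in the ratio of Scn4a to Clcn1, which turned without ASO replicate 3.

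The count of 1 listed gene higher (Kcna5) was the least firm. It was 4 with DESeq2, 3 with upper quartile scaling or without the 20 most abundant genes, and 2 with RLE factors, without the filter on low counts or, in a fit chosen after seeing the data, without ASO replicate 4 and CTRL replicate 3 together. It was 0 with limma-voom, total counts, equal depth or the replicate block, and 0 to 4 when single libraries were left out. The number of all genes called higher moved as well. It was 920 of 7813 in the main fit, 1105 of 10367 with DESeq2, 1262 with upper quartile scaling and 1052 without the 20 most abundant genes. It was 926 with limma-voom, 528 with total counts, 878 at equal depth and 662 with the replicate block. The listed genes lower were 16 to 18 without single libraries. The member groups without overlap were 2 under TMM, RLE factors and upper quartile and 3 under total counts, a comparison also chosen after seeing the data.

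The labels do not say that replicate numbers pair the libraries, and the deviations of same-numbered libraries correlated at −0.43, 0.06, 0.05, 0.06 and 0.16. These correlations cannot exclude a pairing with a weak effect. With the replicate block Scn4a was −0.83, Clcn1 −0.69, Kcnj2 0.38, Kcnj11 0.82 and Atp1b1 −0.40, and no call on a member changed. Fxyd1 could not be fitted under any setting, and 3 planned ratios were not run because a gene in them lacked counts. At 1606909 to 2632560 counts a library, genes with a few counts were beyond detection of a difference. Kcnj12 had few counts too, but with 4 bp of its own this does not show a low level.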

Other observations

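DESeq2 called 3 listed genes higher that edgeR did not, named here after their values were seen. Abcc8, a sulfonylurea receptor known from pancreatic and neuronal KATP channels, had 85 counts in all and was not tested by edgeR. Its log2 fold change in DESeq2 was 2.58 (Wald test, Benjamini-Hochberg adjusted p = 4.9e-04). Dmpk, the kinase gene of myotonic dystrophy, had levels of 355 ± 59.9 CPM (ASO) and 265 ± 43.5 CPM (CTRL), and the potassium channel Kcnc4 was at 172 ± 66.6 and 104 ± 32.3 CPM (SD, n = 5 each). The edgeR log2 fold changes of Dmpk and Kcnc4 were 0.42 and 0.74 (quasi-likelihood test, Benjamini-Hochberg adjusted p = 0.062 and 0.078).

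The annotated ends of the members differ in whether they hold AATAAA or ATTAAA, hexamers that serve as polyadenylation signals. Other variants were not searched. AATAAA lies in the last 50 bases of the Atp1b1, Fxyd1 and Kcnj2 windows and ATTAAA in that of Scn4a, and neither was found for Clcn1 and Kcnj11. In Kcnj2 the last AATAAA forms the final 6 bases of the window, with another copy upstream of it. One or the other hexamer was present in 62.0% of 28349 distinct 500-bp segments.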
